A study of Mus musculus with 20 samples.

Results

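The levels of 10 immediate early genes were examined in 20 libraries of mouse utricle RNA. These were *Fos*, *Fosb*, *Jun*, *Junb*, *Jund*, *Egr1*, *Ier2*, *Atf3*, *Dusp1* and *Zfp36*, which were taken by symbol from the 25655 genes of the deposited tables. All 10 symbols were found. The utricle is the vestibular organ whose hair cells sense linear acceleration under a layer of otoconia. The mice were C57BL/6J females that were operated on at 8 weeks of age. The sham + v group (libraries 1 to 5) kept its ovaries and received a vehicle pellet. The OVX + v group (libraries 6 to 10) was ovariectomized (OVX) and received a vehicle pellet. The OVX + E2 group (libraries 11 to 15) was ovariectomized and received a pellet of 50 µg of estradiol released over 60 days. The OVX + RAL group (libraries 16 to 20) was ovariectomized and received a pellet of 2.4 mg of raloxifene, a selective estrogen receptor modulator, released over 60 days. The utricles were taken after decapitation, dissected under water, and then placed in a reagent that stabilizes RNA. The labels do not say whether a library holds the RNA of 1 mouse or of several. The p-values therefore measure the spread between libraries.

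Immediate early genes are switched on within minutes of a stimulus, without new protein synthesis. Kinases of the MAP kinase cascade phosphorylate factors that are already bound at their promoters, such as the serum response factor with its cofactors and CREB. Fos and Jun proteins pair to form the AP-1 transcription factor, Egr1 is a zinc finger transcription factor, and Atf3 is a stress-induced factor of the ATF family. Ier2 is a nuclear protein of the same early response. Dusp1 is a phosphatase that inactivates MAP kinases, and Zfp36 (tristetraprolin) binds AU-rich elements of mRNAs and speeds their decay, so that both limit the response. The mRNAs of this class are short-lived, and their levels are widely used as a sign of recent stimulation, including by the handling of tissue.

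The promoters and 3′ UTRs of these genes were searched for known sequence elements. Promoters of 250 bases before the start of the canonical transcript were read from GRCm39, the build of the deposited tables, with the GENCODE vM39 annotation. The full cyclic AMP response element (CRE), TGACGTCA, to which CREB and ATF factors bind, was found in the promoters of *Jund*, *Ier2* and *Dusp1*, which is 3 of 10 members, and in 1.69% of 21770 promoters of the same length. The TATA box letters TATAAA were found in those of *Fos* and *Junb*, and in 11.9% of all promoters. The GC box GGGCGG was found in 7 of 10 members and in 36.3% of all promoters. Both strands were searched, and a GC box may touch a CRE. The AP-1 site TGANTCA was searched with C or G at its open base and was in 0 members (4.02% of all promoters). The EGR site GCGTGGGCG (0.547%), the CArG box (1.4%) and the palindromic estrogen response element (0.0505%) were also in 0 members, which says only that these letters are not in these windows. The 4 promoters below are those of the member without a count (*Fos*), of the member found in every library (*Jund*), and of the other 2 with a CRE. Capitals mark the TATA box in *Fos* and the CRE in the other 3. They lie at chr12:85520408-85520657 on the plus strand (*Fos*), chr8:71151349-71151598 on the plus strand (*Jund*), chr8:85389484-85389733 on the minus strand (*Ier2*) and chr17:26727494-26727743 on the minus strand (*Dusp1*), each directly upstream of the first exon.
Fos: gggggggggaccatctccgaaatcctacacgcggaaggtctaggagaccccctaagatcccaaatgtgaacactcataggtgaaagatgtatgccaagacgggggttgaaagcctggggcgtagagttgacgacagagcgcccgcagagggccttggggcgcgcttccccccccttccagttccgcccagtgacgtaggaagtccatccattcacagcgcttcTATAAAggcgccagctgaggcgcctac
Jund: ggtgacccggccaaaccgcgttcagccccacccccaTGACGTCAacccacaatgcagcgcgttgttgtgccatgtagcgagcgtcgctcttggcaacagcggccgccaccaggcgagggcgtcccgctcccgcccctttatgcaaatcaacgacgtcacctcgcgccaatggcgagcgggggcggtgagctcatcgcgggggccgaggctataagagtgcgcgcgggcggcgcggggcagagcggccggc
Ier2: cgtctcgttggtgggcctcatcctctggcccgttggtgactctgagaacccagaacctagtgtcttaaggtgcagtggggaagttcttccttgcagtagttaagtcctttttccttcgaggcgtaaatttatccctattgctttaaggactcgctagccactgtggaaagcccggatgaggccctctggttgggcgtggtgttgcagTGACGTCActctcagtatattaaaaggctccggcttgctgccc
Dusp1: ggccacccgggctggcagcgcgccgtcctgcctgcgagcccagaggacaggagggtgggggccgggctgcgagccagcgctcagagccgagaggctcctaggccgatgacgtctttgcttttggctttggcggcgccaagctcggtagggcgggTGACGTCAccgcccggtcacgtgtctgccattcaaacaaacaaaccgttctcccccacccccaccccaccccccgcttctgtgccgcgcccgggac

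The 3′ UTRs of 9 of the 10 members carry the pentamer ATTTA, the core of AU-rich elements, and that of *Ier2* has 0. The members had a median of 2.89 pentamers per kilobase of 3′ UTR, against 1.38 over 21656 canonical coding transcripts. The nonamer TTATTTATT was found in 3 of 10 members (*Fos*, *Dusp1* and *Zfp36*) and in 8.02% of all transcripts. The members' transcripts were also short, with a median of 2052 bases against 2928, and had a median of 2 exons against 7. The stretches of 30 bases below are those with the most pentamers in the 3′ UTRs of *Fos*, *Jun*, *Dusp1* and *Zfp36*, with the pentamers in capitals. They lie at chr12:85523864-85523893 (*Fos*, plus strand), chr4:94937447-94937476 (*Jun*, minus strand), chr17:26725141-26725170 (*Dusp1*, minus strand) and chr7:28076388-28076417 (*Zfp36*, minus strand).
Fos: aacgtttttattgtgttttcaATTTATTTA
Jun: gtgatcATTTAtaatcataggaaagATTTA
Dusp1: ggctcatgggagctggtccttATTTATTTA
Zfp36: tgggccctttATTTAtgacgactttATTTA

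The libraries were made with a kit that reads the 3′ ends of mRNAs. A transcript gives a read whatever its length, and levels are given as CPM (counts scaled to the library's total count). The totals were between 1123053 and 2081747 counts, and were lowest in the OVX + E2 group (median 1324047, against 1605308 in the OVX + v group). A gene was called detected from 3 counts up, and 3 counts made 1.44 CPM in the largest library and 2.67 CPM in the smallest. Counts were made without molecular identifiers, so that these floors cover counting error only. All 10 hair cell markers and all 10 markers of supporting cells and otoconial matrix had counts, and the hair cell factor *Pou4f3* had between 81.6 and 552 CPM in each of the libraries. The libraries also held other cells. The summed level of 7 Schwann cell and myelin markers was between 1674 and 4285 CPM, that of 5 hemoglobin and red cell markers between 363 and 3837 CPM, and that of 8 macrophage markers between 156 and 955 CPM. In such a bulk sample, fewer cells of a type and less RNA per cell cannot be told apart.

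*Fos* had 0 counts in every library, and 0 of 33478857 counts in all. By counting error alone this would allow a level of up to 0.0896 CPM over the 20 libraries. For the members with a count, the SD of counts over libraries was 3.01 to 8.2 times counting error. The figure of 0.0896 CPM is therefore too low as a bound. *Fos* lies at chr12:85520664-85524047 on the plus strand. All 338 windows of 63 bases in the last 400 bases of its canonical transcript, the part that such reads come from, occur at 1 place in the genome. A read of that length from there thus has 1 exact match, while reads trimmed to a shorter length were not examined. In the tables, 9852 of 25655 genes had 0 counts in all 20 libraries. Of the other Fos family genes, *Fosb* and *Fosl1* were at 0 in most or all libraries. *Fosb* had 23 counts in OVX + E2 library 12 (17.4 CPM), 2 counts in sham + v library 4, and 0 in the other 18. *Fosl1* had 0 counts in every library. *Fosl2*, the remaining Fos family gene, had a mean of 11.1 CPM and counts in 12 of 20 libraries. The stress factor *Atf3* was detected in 3 libraries, with 6 counts in OVX + v library 10, 14 in OVX + RAL library 17 and 6 in OVX + RAL library 20, and had 1 count in OVX + E2 library 11.

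*Jund* was the sole member detected in all 20 libraries. It had a mean of 254 ± 93.4 CPM (SD, n = 20), and ranked 560 of the 15803 genes with a count. It made up 70.0% of the members' summed counts, and between 52.6% and 89.2% in single libraries. Jund is the Jun protein that is made in resting cells as well. *Jund* lies at chr8:71151599-71153265 on the plus strand in 1 exon, and 54 of the 338 windows at its 3′ end occur at more than 1 place in the genome, so that its counts depend on how such reads were handled. For each of the other 8 members with a count, every window occurs at 1 place. *Egr1* followed at 25.9 ± 27.6 CPM (detected in 15 libraries), *Jun* at 22.6 ± 19.9 CPM (17 libraries), *Junb* at 18.8 ± 17.2 CPM (14 libraries), *Dusp1* at 15.5 ± 21.3 CPM (11 libraries) and *Ier2* at 15.1 ± 16.8 CPM (14 libraries). These 5 neighbours differed by less than their spread over libraries. *Zfp36* had 7.16 ± 10.8 CPM and was detected in 9 libraries. The spans of *Junb* and *Dusp1* overlap *Prdx2* and *Ergic1* on the other strand, and it is not given in the sources used here whether reads were counted by strand.

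**Figure D1:**
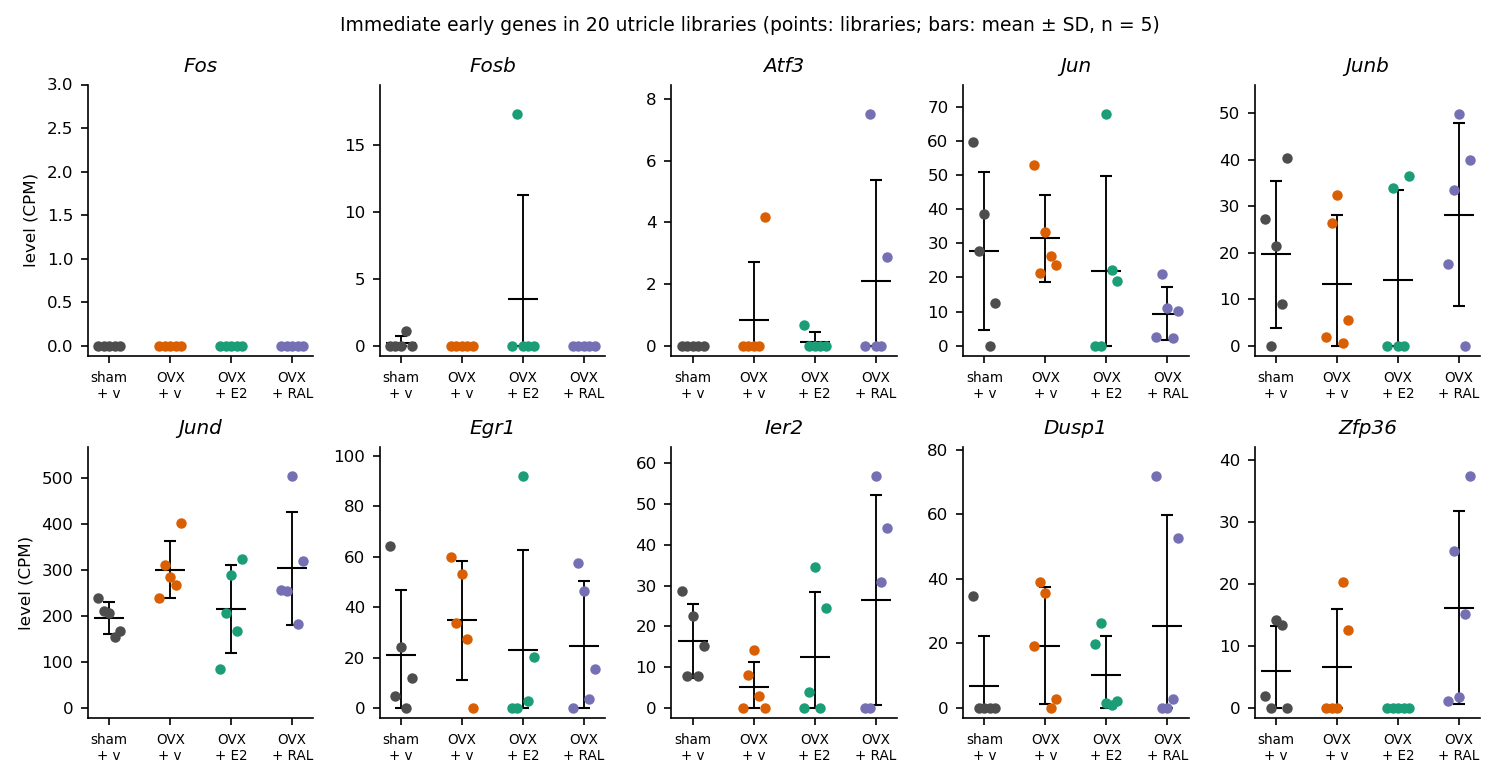
Levels of the 10 immediate early genes (CPM, 1 panel a gene with its own linear axis) in the 4 groups. Points are libraries, and bars are the mean ± SD of 5 libraries with lower ends drawn no lower than 0. *Fos* lies at 0 throughout, *Jund* is above 84 CPM in every library, and each of the other members is at 0 in at least 3 libraries.

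Single libraries held between 2 and 8 detected members, with a median of 5.5. The fewest were in OVX + E2 library 11, where *Jund* (84.2 CPM) and *Dusp1* (19.9 CPM) alone were detected. The most were in OVX + RAL library 20, where *Fos* and *Fosb* alone were not. The summed level of the members was between 187 and 457 CPM in the sham + v group (median 251.9), between 346 and 455 CPM in the OVX + v group (median 439), between 105 and 487 CPM in the OVX + E2 group (median 288), and between 238 and 672 CPM in the OVX + RAL group (median 399). The ranges of all 4 groups overlapped. Without *Jund*, the sum was between 20.6 CPM (library 11) and 217 CPM (sham + v library 1).

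The members with a middle level were at 0 in several libraries, as were other genes at such levels. *Jun* had 0 counts in 3 libraries, *Junb* and *Egr1* in 5, *Ier2* in 6 and *Dusp1* in 7. Among the 3891 genes with a mean between 10 and 30 CPM, the median was 6 libraries at 0, and the 5th and 95th percentiles were 2 and 11. *Zfp36* had 0 counts in 10 libraries, against a median of 13 for the 2774 genes between 3 and 10 CPM. The coefficient of variation over libraries was 36.7% for *Jund*, the member with the highest level, 88.1% for *Jun*, 106% for *Egr1* and 151% for *Zfp36*.

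**Figure D2:**
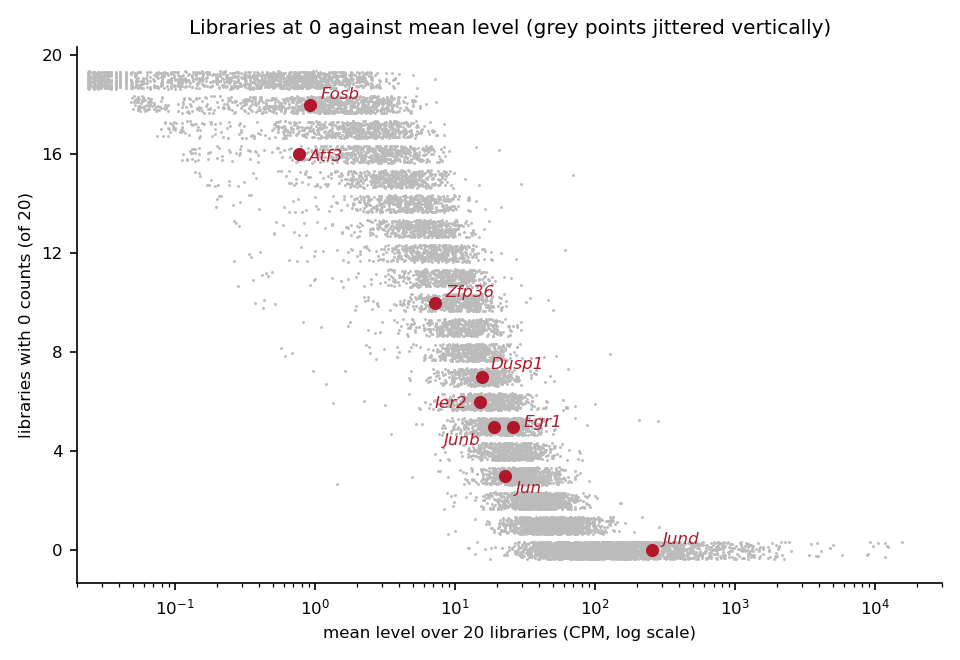
Number of the 20 libraries with 0 counts against mean level (CPM, log axis) for each gene with a count (grey, jittered vertically) and for the 9 members with a count (red). The members lie within the grey band: *Jund* at 0 libraries, *Jun* at 3, *Zfp36* at 10, *Atf3* at 16 and *Fosb* at 18.

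The question of the design was whether ovariectomy, and estradiol or raloxifene after it, changed gene expression in the utricle. The OVX + v group was the reference for each of the other groups. The tests were the quasi-likelihood tests of edgeR, adjusted by the Benjamini-Hochberg method over all genes tested. None of the members passed an adjusted p of 0.05 in any comparison. In sham + v against OVX + v, 0 of 7 tested members passed, where 0.0145% of 13825 genes did, and 0 were under an unadjusted p of 0.05, where 12.5% of all genes were. In OVX + E2 against OVX + v, 0 of 8 passed (0.0584% of 13695 genes), and 2 were under an unadjusted 0.05 (13.9%). These 2 were *Fosb* and *Zfp36*. Each entered the test only through the 1 group in which it had counts, so that they are no support for a difference. In OVX + RAL against OVX + v, 0 of 8 passed (0.0286% of 14002 genes), and 0 were under an unadjusted 0.05 (12.1%). In the test of any difference among the 4 groups, 0 of 9 passed (0.141% of 14870 genes), and 1 was under an unadjusted 0.05 (16.3%). DESeq2 and limma also called 0 members in each of the 4. Against backgrounds this low, 0 calls is not a result about the members. The median log2 fold change of the tested members was -0.18 in sham + v (all genes -0.02), -0.51 in OVX + E2 (all genes -0.06) and 0.74 in OVX + RAL (all genes -0.03), each against OVX + v. With single libraries left out, these medians lay between -0.67 (without library 1) and 0.0017 (without library 5), between -0.63 (without library 13) and -0.24 (without library 11), and between 0.35 (without library 20) and 0.9992 (without library 19). With limma on log2(CPM + 1) the medians were -0.61, -0.80 and 0.24 (all genes -0.15, -0.46 and -0.02), and in OVX + RAL the median was 0.40 with the default filter or with all libraries in 1 fit. The members above and below 0 were 2 and 5, 3 and 5, and 6 and 2, respectively, by edgeR, and 3 and 4, 2 and 6, and 4 and 4 with limma. The 3 comparisons share the OVX + v libraries.

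**Figure D3:**
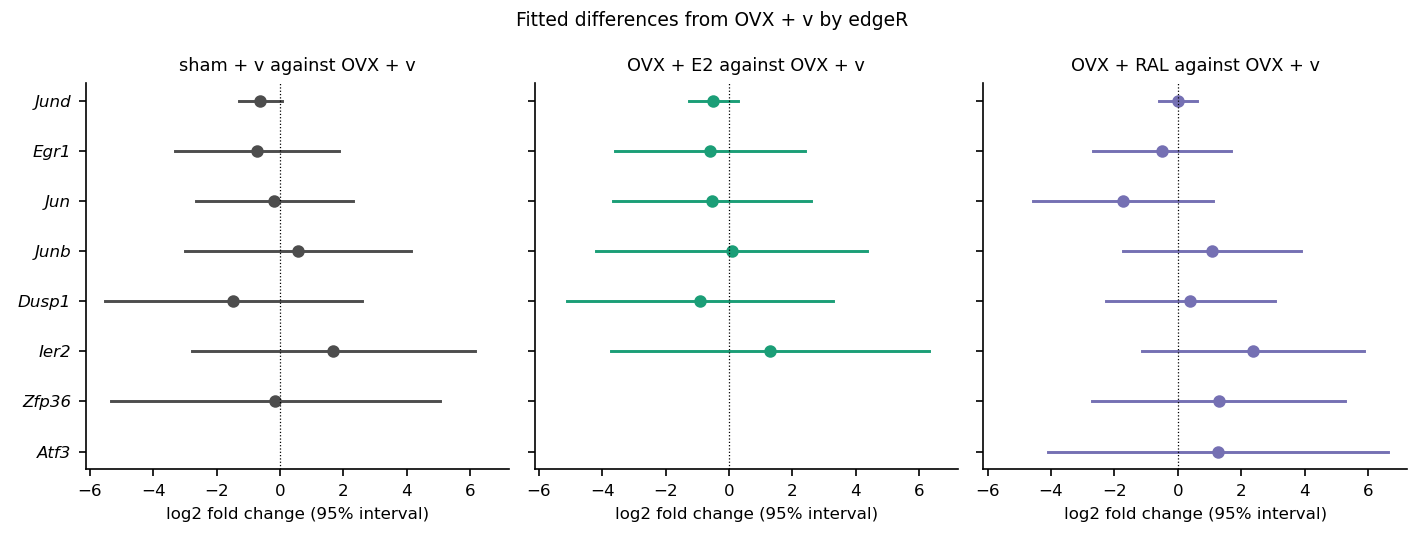
Fitted log2 fold change against OVX + v (points) with its 95% interval (lines) by edgeR for the tested members with a count in both groups, in 3 panels by comparison. Every interval spans 0. The narrowest are those of *Jund*, and the others reach from below -1 to above 1.

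*Jun*, the partner of Fos proteins in AP-1, was the sole member whose groups did not overlap in a comparison. It lies at chr4:94937271-94940459 on the minus strand. The levels in the OVX + v group were 52.9, 21.3, 33.4, 26.3 and 23.7 CPM, and those in the OVX + RAL group were 2.57, 21.01, 11.2, 2.10 and 10.1 CPM. All 5 OVX + RAL libraries were thus below all 5 OVX + v libraries, but OVX + RAL library 17 (21.01 CPM) and OVX + v library 7 (21.3 CPM) nearly met. The means were 9.38 ± 7.72 CPM and 31.5 ± 12.8 CPM (SD, n = 5). The exact permutation test of log2(CPM + 1), two-sided, gave p = 0.00794, the smallest that 5 against 5 libraries allow, and of all genes tested in this comparison 0.578% had no overlap. By edgeR the log2 fold change was -1.74 (SE 1.44, 95% interval -4.58 to 1.10), with an unadjusted p of 0.228 and an adjusted p of 0.99994. With TMM factors the groups still did not overlap (21.9 against 22.3 CPM at the nearest). In the other groups *Jun* spread more widely. The sham + v libraries had 59.9, 27.8, 38.5, 0 and 12.6 CPM, and the OVX + E2 libraries 0, 0, 68.1, 22.3 and 18.9 CPM. Both ranges enclosed that of the OVX + v group. The log2 fold changes by edgeR were -0.18 (SE 1.27) in sham + v and -0.53 (SE 1.60) in OVX + E2, and -0.98 and -1.95 as differences of log2(CPM + 1).

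*Jund* was lower in most sham + v libraries than in the OVX + v libraries, without passing the edgeR test. The sham + v libraries had 240, 212, 206, 155 and 168 CPM, and the OVX + v libraries 239, 311, 286, 268 and 403 CPM. Of the sham + v libraries, 4 of 5 were below every OVX + v library, and library 1 was just above the lowest. The means were 196 ± 34.2 and 301 ± 62.3 CPM (SD, n = 5). The exact permutation test gave p = 0.0159, and edgeR a log2 fold change of -0.62 (SE 0.349, 95% interval -1.30 to 0.07) with an unadjusted p of 0.0762 and an adjusted p of 0.562. None of the members was without overlap in this comparison, against 0.499% of all genes tested. In the OVX + E2 group *Jund* had 84.2, 206, 290, 168 and 323 CPM, with a log2 fold change of -0.49 (SE 0.396, adjusted p by edgeR 0.903). In the OVX + RAL group it had 257, 254, 506, 183 and 321 CPM, and its mean (304 ± 123 CPM) differed from that of OVX + v by 0.01 on the log2 scale (SE 0.306, 95% interval -0.59 to 0.61).

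*Junb*, the third Jun family gene, lies at chr8:85701113-85705347 on the minus strand. It had 27.3, 0, 21.3, 8.95 and 40.5 CPM in the sham + v group, and 1.87, 26.3, 32.3, 0.495 and 5.57 CPM in the OVX + v group. The OVX + E2 libraries were at 0 in 3 of 5 and at 34.0 and 36.5 CPM in the others. The OVX + RAL libraries had 17.5, 33.4, 49.9, 0 and 39.9 CPM, of which 3 were above every OVX + v library. The log2 fold changes were 0.55 (SE 1.82), 0.08 (SE 2.18) and 1.07 (SE 1.42), and none passed.

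*Egr1* had 64.3, 4.72, 24.3, 0 and 11.9 CPM in the sham + v group, 59.8, 33.9, 53.3, 27.2 and 0 CPM in the OVX + v group, 0, 0, 92.2, 2.67 and 20.3 CPM in the OVX + E2 group, and 0, 57.6, 46.4, 3.67 and 15.4 CPM in the OVX + RAL group. Every group thus reached from 0 to above 57 CPM. The log2 fold changes against OVX + v were -0.72 (SE 1.32), -0.60 (SE 1.53) and -0.50 (SE 1.11), with adjusted p-values by edgeR of at least 0.9997.

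The mean of *Ier2* was lowest in the OVX + v group, with ranges that overlapped in all 4 groups. It lies at chr8:85387960-85389483 on the minus strand. The OVX + v libraries had 0, 8.16, 14.2, 2.97 and 0 CPM. The sham + v libraries had 28.7, 7.87, 22.5, 7.83 and 15.3 CPM, of which 3 were above every OVX + v library. The OVX + E2 libraries had 0, 3.78, 34.5, 0 and 24.5 CPM, and the OVX + RAL libraries 0, 0, 57.0, 30.95 and 44.2 CPM. In both of these groups the low libraries were as low as those of OVX + v. The means were 16.4 ± 9.18 (sham + v), 5.06 ± 6.09 (OVX + v), 12.6 ± 15.9 (OVX + E2) and 26.4 ± 25.8 CPM (OVX + RAL). The exact permutation test of sham + v against OVX + v gave p = 0.0476, while the log2 fold change by edgeR was 1.69 (SE 2.27) with an adjusted p of 0.9998. Those of OVX + E2 and OVX + RAL were 1.30 (SE 2.56) and 2.37 (SE 1.77, adjusted p by edgeR 0.933). In all, 26 exact tests of members were made, and 3 were under 0.05 without adjustment, those of *Jund* and *Ier2* in sham + v and of *Jun* in OVX + RAL. The same test was under 0.05 for 3.85% of all genes tested in sham + v, 5.18% in OVX + E2 and 4.14% in OVX + RAL.

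The 2 members that limit the response, *Dusp1* and *Zfp36*, were each high in a few libraries. *Dusp1* had 34.6 CPM in sham + v library 1 and 0 in the other 4 libraries of that group. The OVX + v libraries had 19.3, 38.9, 35.7, 0 and 2.79 CPM, the OVX + E2 libraries 19.9, 26.4, 1.60, 0.890 and 2.10 CPM, and the OVX + RAL libraries 72.0, 0, 0, 2.62 and 52.8 CPM. The log2 fold changes against OVX + v were -1.47 (SE 2.07), -0.92 (SE 2.14) and 0.40 (SE 1.36), and none passed. *Zfp36* had 1.95, 0, 14.2, 13.4 and 0 CPM in the sham + v group, and 0, 0, 0, 20.3 and 12.5 CPM in the OVX + v group. It had 0 counts in all 5 OVX + E2 libraries. The OVX + RAL libraries had 1.03, 25.3, 1.76, 15.2 and 37.5 CPM.

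The OVX + v mean of *Zfp36* (6.57 ± 9.41 CPM) was 2.87 times the level of 3 counts per OVX + E2 library (mean 2.29 CPM). This floor covers counting error only, so that the ratio is not a lower bound of a difference. The ratio rests on library 9, without which the OVX + v mean was 3.14 CPM and the ratio 1.37, a value added after seeing the data. *Zfp36* entered this comparison only through its counts in OVX + v. The unadjusted p by edgeR was 0.0409 and the adjusted p 0.351, while the exact permutation test gave p = 0.444. Of the OVX + v libraries, 3 were also at 0, and zeros are common among genes at this level, as given above. The OVX + E2 group had the lowest median total count, and its libraries held 7427 to 9680 genes with a count, against 10004 to 10694 in OVX + v. The part of depth in these zeros was not tested. *Fosb* was at 0 in all OVX + v libraries, and passed the filter only through the 23 counts of OVX + E2 library 12. Its OVX + E2 mean was 1.92 times the level of 3 counts per OVX + v library (unadjusted p by edgeR 0.0378, adjusted p 0.351). Without library 12 this ratio was 0, so that the values restate 1 library. With *Zfp36* and *Fosb* at these ratios, the members' median in this comparison was also -0.51. Of all genes tested in it, 0.832% had no overlap, and 0 members.

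Genes that respond to 1 stimulus together would be high in the same libraries. This was examined as the correlation of log2(CPM + 1) over the 20 libraries for pairs of members. Of 45 possible pairs, 36 could be computed, since *Fos* did not vary. The median Spearman rho over the 36 pairs was 0.078 (25th to 75th percentile -0.14 to 0.20), and 20 of the 36 were above 0. Over the 26364691 pairs of the 7262 genes with a mean of at least 20 CPM, the median was 0.004 (-0.16 to 0.17). With a minimum of 5 CPM, which was chosen after seeing the data and takes in 7 members, it was 0.0085. Of the members, 3 meet the first minimum and had rho values of 0.271, 0.405 and 0.719 in their 3 pairs, while the 7 that meet the second had a median of 0.13 with 15 of 21 pairs above 0. With the group means subtracted, the median of the 21 pairs was 0.065, and 11 were above 0. These matched values were added after seeing the data. After subtraction of the group means, the median of all 36 pairs was 0.000427. Pairs that share a gene are not independent.

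One pair passed, that of *Jun* and *Egr1*. Pearson's r was 0.777 (permutation p = 9.00e-05, adjusted over 36 pairs 0.00324), and Spearman's rho 0.719 (permutation p = 0.00072, adjusted 0.0259). The call by Pearson's r was kept with each library left out, while that by Spearman's rho was lost without library 1, 4, 6, 11, 12, 13 or 16. In all pairs of genes with a mean of at least 20 CPM, 0.0402% had a rho as high. OVX + E2 library 13 had the highest level of both genes (68.1 and 92.2 CPM), followed for *Jun* and *Egr1* alike by sham + v library 1 (59.9 and 64.3 CPM) and OVX + v library 6 (52.9 and 59.8 CPM). Not all libraries followed this. OVX + v library 10 had 23.7 CPM of *Jun* and 0 of *Egr1*, and OVX + RAL library 16 had 2.57 and 0 CPM. Far less *Egr1* than *Jun* was also found in sham + v library 2 (4.72 against 27.8 CPM) and OVX + E2 library 14 (2.67 against 22.3 CPM). In 3 libraries, sham + v library 4 and OVX + E2 libraries 11 and 12, both genes were at 0. These 3 were equally far from the median of *Jun*, and without any 2 of them r was 0.691 and rho 0.642. Over the 17 libraries with a count of either gene, r was 0.598 and rho 0.589, a choice made after seeing the data. With the group means subtracted, r was 0.784 and rho 0.771 (adjusted permutation p 0.00144 and 0.0245). Correlations within single groups were not calculated, and the labels name no batch of libraries.

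**Figure D4:**
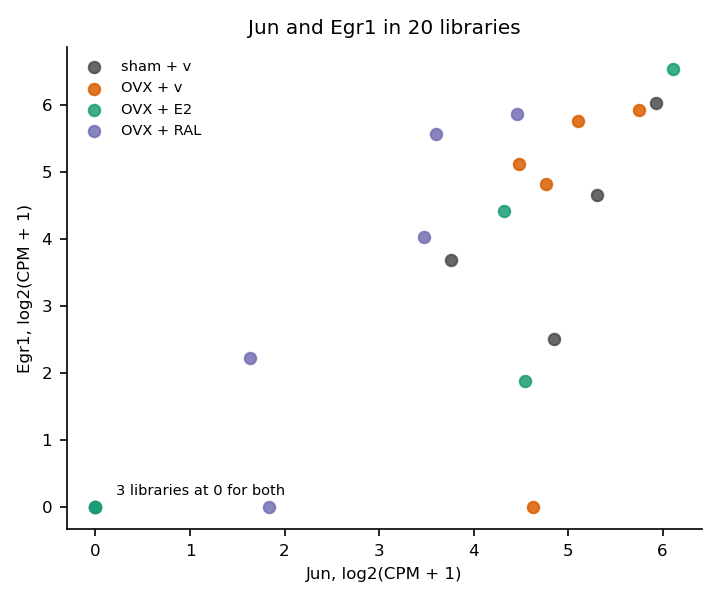
Level of *Egr1* against that of *Jun*, both as log2(CPM + 1), in the 20 libraries, coloured by group. The libraries tend to rise together from 3 at 0 for both genes to OVX + E2 library 13 at 68.1 and 92.2 CPM. OVX + v library 10 and OVX + RAL library 16 lie on the bottom edge with counts of *Jun* and 0 of *Egr1*.

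The other members did not rise with this pair in a way that passed. *Jund* had an r of 0.509 and a rho of 0.271 with *Jun* (0.562 and 0.448 with the group means subtracted), and 0.460 and 0.405 with *Egr1* (0.427 and 0.423). *Ier2* had 0.170 and 0.0962 with *Jun* (0.275 and 0.238), 0.449 and 0.401 with *Egr1* (0.537 and 0.538), and 0.316 and 0.336 with *Jund* (0.526 and 0.596). All of these were above 0, and none passed after adjustment. *Junb* had a rho of -0.21 with *Jun* and 0.41 with *Jund*. *Dusp1*, which is induced by the same kinases, had a rho of -0.10 with *Jun* and -0.07 with *Egr1*. The highest *Dusp1* levels were in OVX + RAL libraries 16 and 20, and in library 16 *Egr1* was at 0 and *Jun* at 2.57 CPM. *Atf3* and *Zfp36* had 0.42, with *Atf3* detected in 3 libraries. The lowest value was -0.49, for *Fosb* and *Jun*. Adjusted permutation p-values of the 35 other pairs were above 0.05 for both coefficients.

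**Figure D5:**
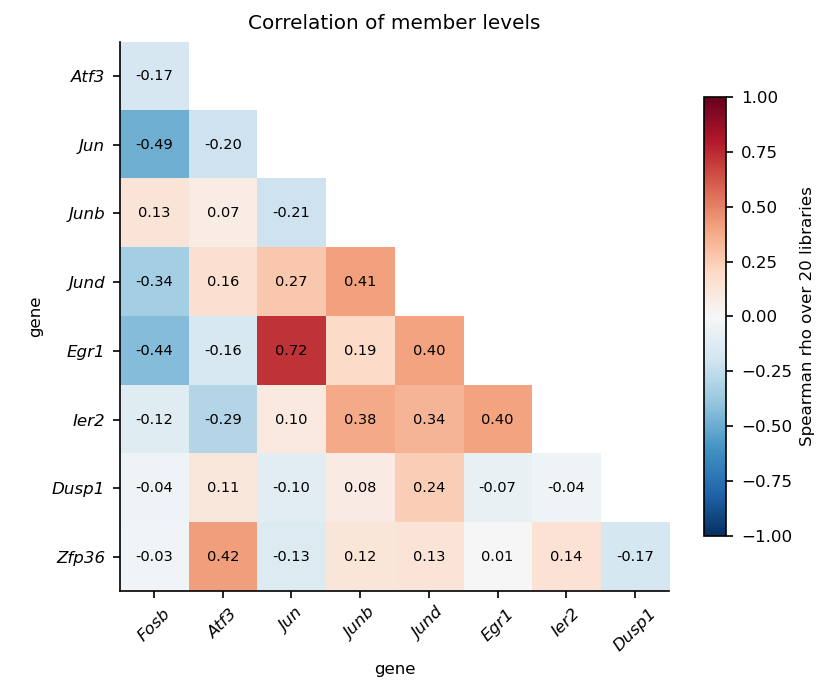
Spearman rho of log2(CPM + 1) over 20 libraries for the 36 pairs of the 9 members with a count, from -1 (blue) to 1 (red). *Jun* and *Egr1* (0.72) stand out, and most other cells are pale, between -0.49 and 0.42.

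The members were also set against the measures of each library. These were the total count, the number of genes with a count, the summed level of 11 heat shock genes, the summed levels of 13 marker lists of cell types, and that of the 13 mitochondrial transcripts. Of 153 relations, 0 passed a permutation test of Spearman's rho after adjustment, 0 passed for Pearson's r, and 6 and 3, respectively, were under 0.05 without adjustment. The smallest adjusted permutation p of a rho was 0.289, for *Zfp36* and the total count (rho 0.669, r 0.549). With the group means subtracted, this relation had a rho of 0.118 and an r of 0.189. *Dusp1* and the 7 endothelial cell and pericyte markers had a rho of -0.555 and an r of -0.655 (-0.458 and -0.704 with the group means subtracted), with the smallest adjusted permutation p of an r (0.187). *Egr1* had a rho of 0.550 and an r of 0.418 with the macrophage markers, and *Ier2* 0.527 and 0.434 with the dark cell markers (permutation p of rho 0.0137 and 0.0186, adjusted 0.701 and 0.710). With the group means subtracted, these were 0.344 and 0.372 for *Egr1* (permutation p of rho 0.173, no longer under 0.05 without adjustment) and 0.465 and 0.436 for *Ier2* (0.0215). *Jun* had a rho of -0.08 with the heat shock genes and -0.02 with the total count. The summed level of the heat shock genes was between 6556 and 12942 CPM. It was led by *Hsp90ab1* (mean 3796 CPM), *Hspb1* (1739 CPM) and *Hsp90aa1* (1513 CPM), so that it says little of the less abundant genes of the list. The inducible *Hspa1a* and *Hspa1b*, whose sequences are nearly identical so that reads may be split between them, had means of 61.5 and 62.6 CPM. They were not high throughout, with 0 to 229 and 0 to 187 CPM, each at 0 in 1 library. Relations of the members with these genes alone were not tested.

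Other genes of the response were examined in 5 lists, and in each of the 4 tests 0 of them passed. As for the members, the shares over all genes (0.0145%, 0.0584%, 0.0286% and 0.141%) are so low that 0 calls is not a result about the lists. Of 18 other AP-1 and ATF factors, 16 had a count. *Maf* (230 CPM), *Atf5* (147 CPM) and *Atf4* (96.6 CPM) were highest. *Fosl1* and *Batf2* were at 0 throughout. Of 16 other early transcription factors, 14 had a count, with *Klf6* (51.9 CPM), *Irf1* (46.0 CPM) and *Klf4* (42.2 CPM) highest, and *Npas4* and *Myc* at 0. The orphan receptor gene *Nr4a1* had a mean of 20.1 CPM, while *Egr3* and *Egr4* had counts in 3 libraries and in 1 library. All 22 other early effectors had a count, with *Cdkn1a* (160 CPM), *Mcl1* (80.4 CPM) and *Tiparp* (77.3 CPM) highest. Of 19 feedback phosphatases and mRNA decay factors, 15 had a count. *Nfkbia* (276 CPM) and the relatives of *Zfp36*, *Zfp36l2* (116 CPM) and *Zfp36l1* (112 CPM), were highest, above *Zfp36* itself, and *Dusp2*, *Dusp4*, *Spry4* and *Tnfaip3* were at 0. All 25 upstream kinases and factors had a count, with *Mapk3* (230 CPM) and *Map2k7* (83.7 CPM) highest. In the test of any difference among the 4 groups, 5 of the 13 mitochondrial transcripts passed by edgeR, against 0.141% of all genes. Over all genes this test called 0 with limma, 2 with DESeq2 and 1 with the default filter, so that the 5 were not all called there.

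The genes whose pattern over the 20 libraries was most like the mean standardised level of the members were taken from 7259 other genes with a mean of at least 20 CPM. They were *Tppp3* (Spearman rho 0.797), *Pcsk6* (0.780), *Enah* (0.738), *Supt6* (0.728), *Mrps14* (0.710), *Otud7b* (0.705), *Tgfbi* (0.695), *Usp4* (0.688), *Ddx46* (0.687) and *Ppid* (0.677). The lowest values were those of *Josd1* (-0.781), *Gm10719* (-0.769) and *Plpp3* (-0.734). Over all 7259 values the median was 0.029 and the 99th percentile 0.541. The named genes are the extremes of these values and were not tested. None of these 13 genes is in the lists of the early response.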

How the data were processed

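RNA of the utricle was measured in 20 libraries, of 4 groups of 5, which were grouped by the treatment in the labels and named by the library numbers in their titles. The authors removed adaptors, poly(A), low-quality ends and the first 12 nucleotides, mapped the reads to GRCm39 and obtained counts with CLC Genomics Workbench. Its version and the handling of reads with several matches are not given in the sources used here. The authors deposited raw total counts per gene, which alone were used. The deposited CPM, TPM and RPKM columns and the columns of the authors' own comparisons (fold changes and p-values) were not used. Count columns outside the series numbered 0, and the repeated counts of the OVX + v libraries were identical (10 of 10 columns). Totals were 1123053 to 2081747 counts. Of 40 pairs of replicates, 0 were identical.

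CPM was calculated from the column totals. Groups were compared with edgeR 4.0.16 (glmQLFit and glmQLFTest, R 4.3.3) with totals as library sizes and no TMM factor, for genes that reached 10 counts in the sum of the fitted libraries, 10 for each pair of groups and 20 for the test of any difference. The threshold was an adjusted p of 0.05. The SE was derived from the F statistic, as the absolute log2 fold change over its root. Exact permutation tests used log2(CPM + 1) and were two-sided, as were the permutation tests of correlations (100000 permutations, Benjamini-Hochberg adjustment over 36 pairs or 153 relations). The fits were tested on simulated data. Alternatives were TMM, DESeq2 1.42.0, limma 3.58.1 on log2(CPM + 1), no filter, the default filter, the robust fit, 1 fit of all libraries, and each library left out. Python 3.11.15, numpy 2.4.6, scipy 1.17.1 and pandas 2.3.3 were used. The gene lists are the members, the pathway lists, the mitochondrial transcripts and the marker lists of 13 cell types.

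The genes to be named were the 10 members, genes of the pathway lists past the threshold, the 3 of each list with the highest mean CPM, and the 10 most alike and 3 least alike genes. A gene that this rule names is not reported here. *Fosl2*, *Nr4a1*, *Egr3*, *Egr4*, *Hspa1a*, *Hspa1b*, *Pou4f3* and the genes at 0 were named after their values were seen. The members and lists were chosen with earlier results of these data known.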

Additional observations from a re-analysis of the deposited data

Results flagged for a closer look

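The members' CPM in each group of 5 libraries was searched for a library far from the other 4 (Dixon's test at 95%). Of 32 groups with any spread, 6 held one, where chance gives about 1 in 20 groups, or 1.6. These were sham + v library 1 for *Dusp1* (34.6 CPM, 71 counts, with the other 4 at 0), OVX + E2 library 12 for *Fosb* (17.4 CPM, 23 counts), OVX + E2 library 13 for *Egr1* (92.2 CPM, 115 counts), OVX + v library 10 for *Atf3* (4.18 CPM, 6 counts), sham + v library 4 for *Fosb* (1.12 CPM, 2 counts) and OVX + E2 library 11 for *Atf3* (0.663 CPM, 1 count). In 5 of the 6 groups the other 4 libraries were at 0, so that any count stands apart, and the last 2 are below 3 counts. The value of *Egr1* in library 13 stood beside the highest *Jun* of all libraries (68.1 CPM).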

How the results depend on the processing

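No member passed the threshold under any alternative or with any library left out. The smallest adjusted p was 0.191 over 245 tests of the former and 0.189 over 408 of the latter. The number of members called was thus 0 throughout. Of 21 fitted log2 fold changes, 15 kept their sign with each library left out. Those that did not were *Jun* (-0.67 to 0.14) and *Zfp36* (-0.76 to 0.90) in sham + v, *Junb* in OVX + E2 (-0.64 to 0.71), and *Atf3* (-0.18 to 4.98), *Jund* (-0.25 to 0.15) and *Dusp1* (-0.48 to 0.82) in OVX + RAL. Among those that kept it, these moved by more than 1.5 times: *Dusp1* (-8.05 to -1.05, the former without library 1), *Egr1* (-1.76 to -0.40) and *Junb* (0.11 to 1.19) in sham + v, *Egr1* (-2.58 to -0.27), *Ier2* (0.48 to 2.14), *Jun* (-1.61 to -0.21), *Dusp1* (-1.64 to -0.50) and *Jund* (-0.69 to -0.29) in OVX + E2, and *Zfp36* (0.71 to 2.35), *Junb* (0.76 to 1.71) and *Egr1* (-1.09 to -0.18) in OVX + RAL. With limma, and as a difference of log2(CPM + 1), the sign turned for *Zfp36* in sham + v (0.23), *Junb* in OVX + E2 (-0.86), *Jund* in OVX + RAL (-0.05) and *Dusp1* in OVX + RAL (-0.60), and with TMM for *Junb* in OVX + E2 (-0.01). With limma these kept their sign but moved by more than 1.5 times: *Jun* (-0.98) and *Dusp1* (-2.33) in sham + v, *Jun* (-1.95), *Egr1* (-1.76) and *Ier2* (0.59) in OVX + E2, and *Atf3* (0.54), *Ier2* (1.45) and *Egr1* (-0.79) in OVX + RAL. The cause was not tested. TMM moved the median of all genes in OVX + E2 from -0.06 to -0.17, and that of the members from -0.51 to -0.61.

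The count of all genes past the threshold, which serves as background, moved in sham + v from 2 to 1 (TMM), 12 (DESeq2), 0 (default filter and robust fit) and 4 (limma), in OVX + E2 from 8 to 38 (DESeq2), 1 (default filter) and 4 (robust fit), in OVX + RAL from 4 to 0 (default filter and robust fit), and in the test of any difference from 21 to 2 (DESeq2), 1 (default filter), 0 (limma) and 5 (robust fit). With each library left out it was 1 to 10, 6 to 17, 3 to 11 and 17 to 28, respectively.

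The relation of *Jun* and *Egr1* passed for Pearson's r with each library left out, but its Spearman's rho did not without library 1, 4, 6, 11, 12, 13 or 16, so that the number of pairs called by Spearman's rho was 0 to 1. By Pearson's r it was 1, or 2 without library 10. The median rho of the pairs was -0.00091 to 0.10.

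No paired analysis was possible because the groups share no library numbers.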
